A study of Mus musculus with 10 samples.

Results

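The genes described here were 50 genes of skeletal muscle, which encode sarcomere proteins, fiber type isoforms, calcium handling proteins, enzymes of muscle metabolism and regulators of muscle. They were chosen from a list of names, and all 50 were found by name, each on 1 line, among the 21959 genes of the expression table. The table came from mRNA sequencing of 10 mammary tumors of mice, with 1 library from each tumor. Their source was the 4T1 line, murine mammary carcinoma cells that serve as a triple-negative model, which had been injected under the skin of the abdomen of female BALB/c mice aged 5 to 6 weeks. In the exercise group (E, 5 tumors, E1 to E5) the mice ran voluntarily on wheels for 21 days. In the non-exercise group (NE, 5 tumors, NE1 to NE5) the mice were kept under normal husbandry for the same time. The mice of both groups received the same tumor cells. A library held from 15045613 (E5) to 23092251 (NE1) counted reads. Levels are given as FPKM, the reads of a gene scaled by its length and by the counted reads of the library, so that genes of different length can be compared. In pieces of whole tumor, fewer cells of a type and less RNA per cell cannot be told apart.

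Skeletal muscle contracts when thick filaments of myosin pull on thin filaments of actin within the sarcomere, after calcium from the sarcoplasmic reticulum has bound to troponin on the thin filament. Muscle fibers are classed by their myosin heavy chain, from the slow fibers with Myh7 to the fast fibers with Myh2, Myh1 and Myh4 in order of rising speed, and most other sarcomere proteins also have a fast and a slow form. Most of these genes are hardly used outside striated muscle, whereas Atp2a2, Tpm2 and Eno3 are also active in other cell types.

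All 50 genes had reads in at least 1 tumor, and 35 of them had reads in every tumor. Together they took 0.255% (E1), 0.673% (E2), 0.0900% (E3), 0.128% (E4) and 0.123% (E5) of the counted reads in the exercise group. In the non-exercise group they took 0.0475% (NE1), 0.187% (NE2), 0.304% (NE3), 4.29% (NE4) and 0.0648% (NE5). NE4 was thus far above the other 9 tumors, and NE1 and NE5 were under the lowest E tumor. Without Atp2a2 the share was 0.0139% in NE1 and 0.0296% in NE5, against 0.0570% in E3, the lowest E tumor, and 4.23% in NE4. The mean share in E was 0.254% ± 0.242 (SD, n = 5), or 0.149% ± 0.0726 (SD, n = 4) without E2, its highest tumor. In NE it was 0.978% ± 1.85 (SD, n = 5), or 0.151% ± 0.119 (SD, n = 4) without NE4. The log2 ratio of the mean of E to the mean of NE was −1.95, and it turned to 0.75 without NE4. The 95% Wilson interval of a share reached at most 0.00829 percentage points to either side, which covers counting error only, since copies of 1 molecule were not told from separate molecules.

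**Figure D1:**
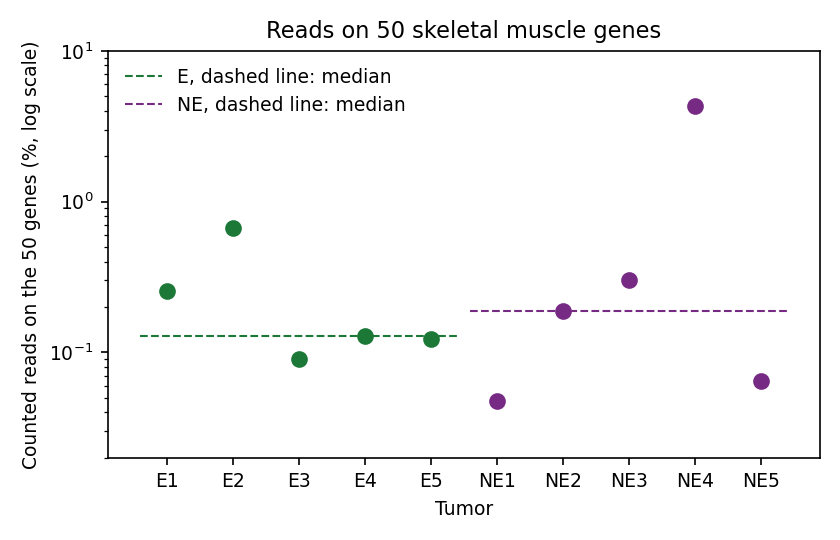
Percent of the counted reads of each tumor that fell on the 50 skeletal muscle genes, on a log scale. Each point is 1 tumor, green for the exercise group (E) and purple for the non-exercise group (NE), and the dashed lines are the medians of 0.128% and 0.187%; NE4 stands at 4.29% and NE1 at 0.0475%.

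Most of the genes had their highest and lowest levels in the same tumors. The highest FPKM was that of NE4 for 50 of the 50 genes, for Tnnc2 on 3 reads. Among those kept by the low-count filter it was that of NE4 for 49 of 49, against 15.0% of the 13517 genes kept. The second highest was that of E2 for 46 genes, with E1 second for Atp2a2, Myod1 and Myog and NE2 for Sln. The lowest was that of NE1 for 43 genes, of which Myl2, Myl3, Tnnc2 and Mstn were at 0 in other tumors as well. Among the 49 that passed the filter it was that of NE1 for 42, against 18.7% of all genes that passed (ties included). Across the 50 genes NE4 was from 1.2 to 13.2 times the second highest tumor, with a median of 6.61. In NE1, 34 of the genes had at most 10 reads and 15 had none.

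Whether running changed the level of these genes was addressed by the comparison of the 5 E with the 5 NE tumors. By the fitted log2 fold changes, 49 of the 49 genes that passed the filter were lower in E, against 54.0% of all genes tested, and their median was −2.13, against −0.014 over all genes. None of them passed the threshold of a difference of 2-fold or more at an FDR of 0.05 or less in edgeR's quasi-likelihood test, where 0% of all genes tested (0 of 13517) passed. None had an unadjusted p of at most 0.05 either, against 4.86% of all genes tested (657 of 13517). DESeq2 also called 0 of the genes, as did both limma tests (voom with weighted samples, and trend), although the direction was not the same in the limma tests. A gene left without an FDR by DESeq2 counted as not called, so the result of DESeq2 covers only genes that had an FDR there. With limma-voom 5 of 49 genes were lower in E, against 53.2% of all genes, with a median of 0.69, and with limma-trend 37 of 49, against 43.5%, with a median of −0.35. An edgeR fit with the replicate number as a block had 13 of 49 lower in E, against 51.2%. Its median was 0.32, and 0 genes were called. With log2(Acta1 CPM + 1) as a covariate, 6 of 48 genes had an unadjusted p of at most 0.05, against 8.58% of all genes tested, and 0 were called. The fold changes, SE and FDR given for single genes are those of edgeR. The FDR of the muscle genes ran from 0.897 to 0.932, and the median SE of their log2 fold changes was 1.44, against 0.120 over all genes. The direction depended on the fit and on NE4: without this tumor, 48 of 49 genes were higher in E, against 48.7% of all genes, with a median log2 fold change of 0.84, and only Myog kept a negative one (−0.03). A fit without both NE4 and E2 was not made. The FPKM of the groups overlapped for 50 of the 50 genes, and were apart for 0.695% of all genes tested.

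**Figure D2:**
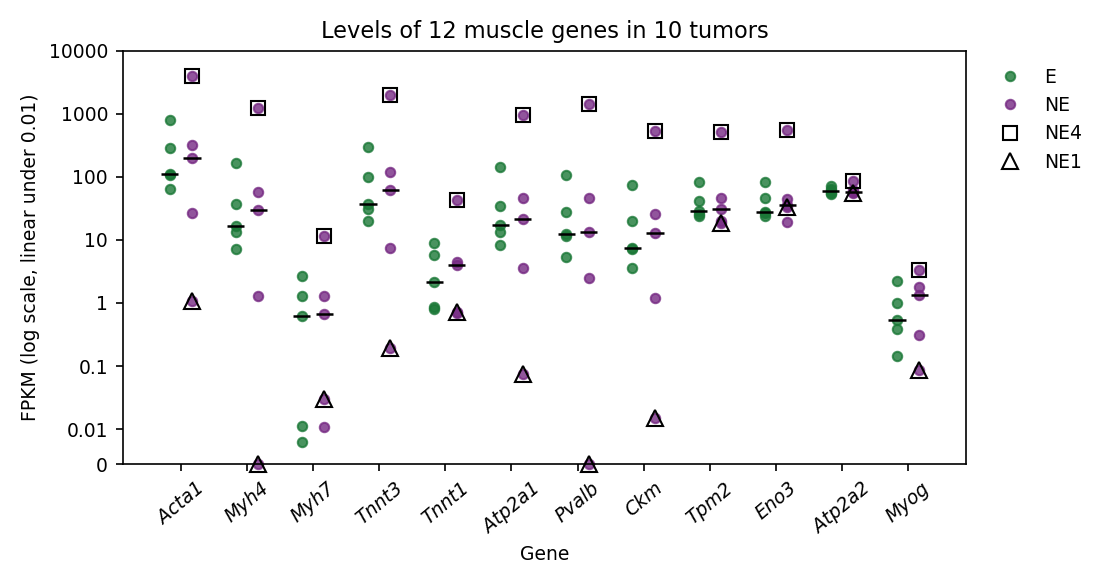
FPKM of 12 of the 50 genes in each of the 10 tumors, on a log scale that is linear under 0.01. Each point is 1 tumor, green for E and purple for NE, the bars are group medians, squares mark NE4 and triangles NE1; Acta1 runs from 1.07 in NE1 to 4023 in NE4, while Atp2a2 stays between 54.2 and 85.0.

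In the thin filament, Acta1 encodes the actin of skeletal muscle and had the highest mean FPKM of the 50 genes. Its FPKM was 291, 800, 63.7, 110 and 107 in E1 to E5 and 1.07, 199, 326, 4023 and 26.3 in NE1 to NE5. These values span 3755-fold, and NE1, with 38 reads, lay far under the other 9 tumors. The mean FPKM in E was 274 ± 307 (SD, n = 5), or 143 (n = 4) without E2, that in NE 915 ± 1742 (SD, n = 5), or 138 ± 153 (SD, n = 4) without NE4. The log2 fold change of Acta1 between E and NE was −1.83 (SE 1.51, FDR = 0.897), and 0.98 without NE4 (SE 1.17, FDR = 0.899). In GRCm38, Acta1 (ENSMUSG00000031972) occupies bases 123891769 to 123894751 of chromosome 8, reverse strand. Tpm2, which encodes a tropomyosin of slow and fast fibers that smooth muscle also uses, behaved otherwise at the low end. Its FPKM was 40.7, 83.8, 23.9, 28.3 and 25.7 in E1 to E5 and 18.5, 31.3, 45.4, 523 and 19.7 in NE1 to NE5. NE1 and NE5 were close to the lowest E tumors, and highest and lowest differed 28.3-fold. Its log2 fold change was −1.74 (SE 0.971, FDR = 0.897), and 0.48 without NE4. Neb, which encodes nebulin, a giant protein along the thin filament, ran from 0.0487 FPKM in NE1 to 19.0 in NE4.

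Troponin is the calcium switch of the thin filament, and its subunits have fast and slow forms. Tnnt3, the fast troponin T, had an FPKM of 98.0, 299, 20.1, 37.7 and 30.6 in E1 to E5 and 0.191, 61.0, 119, 2021 and 7.35 in NE1 to NE5. Tnnt1, the slow troponin T, had an FPKM of 5.82, 8.78, 0.792, 0.856 and 2.14 in E1 to E5 and 0.707, 3.93, 4.53, 42.2 and 0.700 in NE1 to NE5. The fast form took 94.4%, 97.1%, 96.2%, 97.8% and 93.5% in E1 to E5 and 21.3%, 94.0%, 96.3%, 98.0% and 91.3% in NE1 to NE5 of the FPKM of the pair. It was thus over 90% in each tumor other than NE1, where 7 of 43 reads were from Tnnt3 (16.3% of the reads, 95% Wilson interval 8.12% to 30%). For troponin I, the inhibitory subunit, the fast form Tnni2 had an FPKM of 30.6, 100, 7.78, 14.7 and 10.5 in E1 to E5 and 0.116, 19.4, 36.0, 759 and 3.62 in NE1 to NE5. The slow form Tnni1 had an FPKM of 1.48, 2.68, 0.0943, 0.0749 and 0.443 in E1 to E5 and 0.120, 0.980, 1.23, 10.5 and 0.0390 in NE1 to NE5. The share of Tnni2 was from 95.2% to 99.5% in the 9 tumors with at least 30 reads on the pair, and the slow form was least in E4 (0.507%), NE5 (1.06%) and E3 (1.2%). Tnni2 and Tnnt3 lie near each other on chromosome 7 (142441808 to 142444410 and 142498836 to 142516009, GRCm38).

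Troponin C, the subunit that binds calcium, gave another picture. The slow form Tnnc1 had an FPKM of 5.96, 8.45, 0.979, 1.55 and 2.87 in E1 to E5 and 2.0, 3.85, 5.88, 41.2 and 0.943 in NE1 to NE5. It was lowest in NE5 and E3, and NE1 with 48 reads lay above both. Tnnc2, the fast form, had 0, 1, 0, 0 and 0 reads in E1 to E5 and 0, 0, 1, 3 and 0 reads in NE1 to NE5, so that it was at 0 or close to it even in NE4 and was the 1 gene that failed the filter on low counts. At 0 reads, a limit of 3 reads allows up to 0.182 FPKM in E1. In GRCm38, 592 of the 800 exonic bases of Tnnc2 (74%) are also exonic in Ube2c, a gene of the cell cycle on the opposite strand, and 55.0% of its stretches of 50 bases occur in Ube2c transcripts. Ube2c had 2235, 1859, 1539, 1740 and 1250 reads in E1 to E5 and 2405, 2020, 2308, 2101 and 1920 reads in NE1 to NE5. It had no excess in NE4, and whether the overlap bears on the count of Tnnc2 was not tested. The share of Tnnc2 in the pair was at most 0.927%.

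The heavy chain of myosin is the motor of the thick filament. Myh4, the heavy chain of the fastest fibers, had an FPKM of 37.4, 163, 7.26, 13.6 and 16.6 in E1 to E5 and 0, 29.9, 58.1, 1235 and 1.31 in NE1 to NE5. Myh1, the next fastest, had an FPKM of 10.5, 28.6, 6.25, 12.8 and 3.66 in E1 to E5 and 0.00682, 6.89, 12.7, 131 and 4.64 in NE1 to NE5. For Myh2, the heavy chain of fast oxidative fibers, the FPKM was 3.31, 8.93, 0.360, 0.363 and 1.69 in E1 to E5 and 0, 2.64, 5.28, 45.3 and 0.334 in NE1 to NE5. Myh4 and Myh2 had no reads in NE1 and Myh1 had 1, so that NE4 was at least 57199-fold higher than NE1 for Myh4, taking 3 reads as the limit in NE1. Myh7, the slow heavy chain, had an FPKM of 1.28, 2.63, 0.0113, 0.00626 and 0.625 in E1 to E5 and 0.0302, 0.664, 1.27, 11.5 and 0.0109 in NE1 to NE5. It was near 0 in 4 tumors of both groups, with 2 reads in E3, 1 in E4, 6 in NE1 and 2 in NE5, although E5, with an Acta1 level close to that of E4, had 81 reads. The log2 fold change of Myh4 was −2.58 (SE 1.86, FDR = 0.897), and that of Myh7 was −1.66 (SE 1.60, FDR = 0.898). Without NE4 they were 1.08 and 0.87. Myh2, Myh1 and Myh4 lie on chromosome 11 between 67171027 and 67260446 (GRCm38). As 18.9% to 32.1% of their stretches of 50 bases are shared with each other or with Myh8, and 28.2% of those of Myh7 mainly with Myh6 and antisense transcripts, reads could be split between these genes.

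Among the 4 heavy chains, Myh4 took 71.2%, 80.2%, 52.3%, 50.9% and 73.5% in E1 to E5 and 74.6%, 75.1%, 86.8% and 20.9% in NE2 to NE5. Myh1 took 20.0%, 14.1%, 45.0%, 47.8% and 16.2% in E1 to E5 and 17.2%, 16.4%, 9.23% and 73.7% in NE2 to NE5. E3, E4 and NE5 had more of Myh1 than the other 6 tumors, and NE5 was the only one of these 9 tumors with more Myh1 than Myh4. By reads, Myh1 took 46.1% (95% Wilson interval 43.8% to 48.5%) in E3, 49.0% (47.2% to 50.8%) in E4 and 73.9% (70.9% to 76.8%) in NE5, and 16.5% (15.0% to 18.2%) in E5. These intervals cover counting error within a library and not the spread between tumors. Myh2 took 6.31%, 4.41%, 2.60%, 1.35% and 7.5% in E1 to E5 and 6.57%, 6.83%, 3.18% and 5.31% in NE2 to NE5. The share of Myh7 was 2.44%, 1.3%, 0.0812%, 0.0234% and 2.76% in E1 to E5 and 1.65%, 1.65%, 0.811% and 0.172% in NE2 to NE5. It was lowest in the same E3, E4 and NE5, with at most 0.852% of the reads by the upper bound of the Wilson interval, and at least 3.09% by the lower bound in E5. The mean share of Myh4 in E was 65.6% ± 13.2 (SD, n = 5), that in NE 64.3% ± 29.5 (SD, n = 4), and that of Myh7 was 1.32% ± 1.28 in E and 1.07% ± 0.718 in NE. The groups overlapped for each of the 4 shares, and the differences of the means were smaller than the SD.

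**Figure D3:**
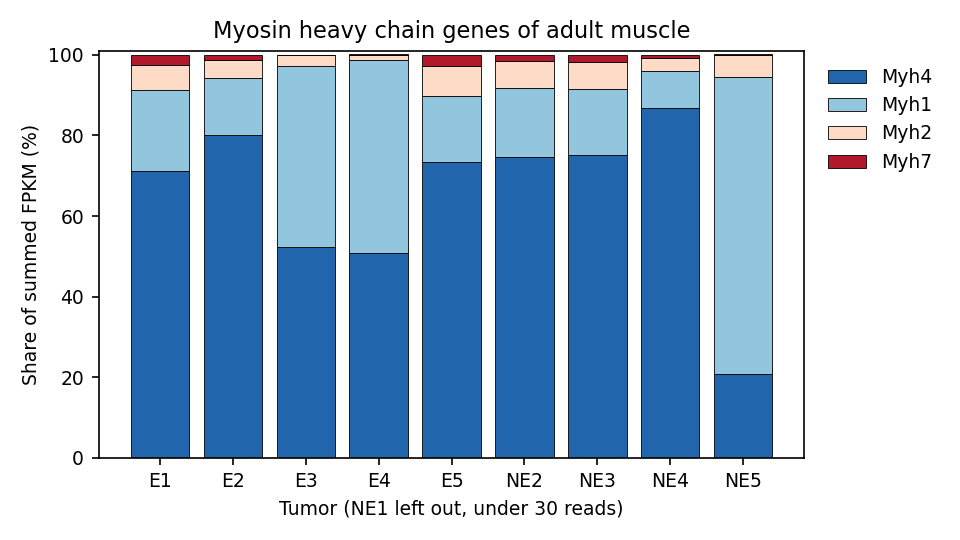
Share of each myosin heavy chain gene in the summed FPKM of the 4 genes, as stacked bars for each tumor with at least 30 reads on them. Myh1 takes 45.0% in E3, 47.8% in E4 and 73.7% in NE5 but at most 20.0% in the other tumors, and Myh7 is at most 2.76%.

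The 4 light chain genes of myosin were also highest in NE4 and second in E2. Mylpf, the fast regulatory light chain, had an FPKM of 90.3, 225, 21.1, 36.3 and 32.4 in E1 to E5 and 3.02, 61.3, 112, 1721 and 9.64 in NE1 to NE5. Its slow partner Myl2 had an FPKM of 2.43, 5.89, 0, 0 and 1.53 in E1 to E5 and 0, 1.12, 3.11, 32.9 and 0.0240 in NE1 to NE5. Myl2 had no reads in E3, E4 and NE1, where 3 reads are at most 0.651%, 0.419% and 4.05% of the reads of the pair, while E5 had 45 reads of Myl2, or 8.01% of the reads of the pair. Myl1, the fast essential light chain, had an FPKM of 40.9, 99.7, 9.64, 15.1 and 13.9 in E1 to E5 and 0.251, 30.4, 55.1, 997 and 3.29 in NE1 to NE5. Myl3, the slow essential light chain, had an FPKM of 1.14, 2.39, 0, 0 and 0.585 in E1 to E5 and 0, 0.262, 1.10, 18.3 and 0.0229 in NE1 to NE5. The slow forms were thus at or near 0 in E3, E4, NE1 and NE5, and took at most 4.53% (Myl2) and 4.03% (Myl3) of the FPKM of their pairs, both in E5. NE1 still had 74 reads of Mylpf, against 38 of the more abundant Acta1. The 4 genes had log2 fold changes from −2.69 to −2.01 between E and NE, with an FDR of 0.897 each, and a median of 0.83 without NE4.

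Titin, the Z-disc, the M-band and the proteins bound to the thick filament were represented by 14 genes, and in all 14 NE4 was the highest, E2 the second and NE1 the lowest tumor. Actn3, the α-actinin of the Z-discs of fast fibers, had an FPKM of 25.6, 66.5, 3.38, 5.02 and 7.58 in E1 to E5 and 0.209, 15.4, 25.6, 501 and 1.35 in NE1 to NE5. Actn2, the α-actinin of all fibers, had an FPKM of 4.89, 10, 1.46, 3.45 and 2.96 in E1 to E5 and 0.0114, 3.0, 5.35, 47.1 and 1.13 in NE1 to NE5. Actn3 took 84.0%, 86.9%, 69.9%, 59.2% and 71.9% in E1 to E5 and 83.7%, 82.7%, 91.4% and 54.4% in NE2 to NE5 of the pair. The share was highest in NE4 and lowest in NE5 and E4, and the mean in E was 74.4% ± 11.2 (SD, n = 5), that in NE 78.1% ± 16.2 (SD, n = 4). Mybpc2, the fast myosin-binding protein C, had an FPKM of 17.2, 52.1, 3.88, 4.61 and 5.82 in E1 to E5 and 0, 12.6, 19.1, 264 and 0.971 in NE1 to NE5. Mybpc1, its slow form, had an FPKM of 6.67, 17.3, 2.41, 3.37 and 3.27 in E1 to E5 and 0.0287, 6.06, 10.4, 89.3 and 1.25 in NE1 to NE5. The slow form was not near 0 in E3, E4 and NE5: the share of Mybpc2 was 61.7%, 57.8% and 43.7% there, and 64.0% to 75.0% in the other 6 tumors with at least 30 reads. Tcap, which caps titin at the Z-disc, had an FPKM of 10.2, 22.1, 2.46, 4.78 and 4.77 in E1 to E5 and 0.228, 7.84, 14.3, 235 and 2.27 in NE1 to NE5. NE4 was 10.7 times E2, and the log2 fold change of Tcap was −2.64 (SE 1.41, FDR = 0.897), or 0.51 without NE4. Of the other 9 genes, Ttn (titin), Myom1 and Myom2 (myomesins of the M-band), Ldb3, Myot and Myoz1 (Z-disc proteins), Smpx, Xirp2 and Klhl41 were highest in NE4 with 6.95 (Xirp2) to 185 FPKM (Myoz1). In NE1 these 9 were at most 0.291 FPKM (Klhl41). The fitted log2 fold changes of the 14 genes were from −2.64 to −1.40, with a median of −2.09, and of 0.84 without NE4.

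In calcium handling, the pumps of the sarcoplasmic reticulum differed in their spread between tumors. Atp2a1, the pump of fast fibers, had an FPKM of 34.4, 142, 8.23, 17.0 and 13.2 in E1 to E5 and 0.0747, 21.3, 46.3, 972 and 3.54 in NE1 to NE5. Atp2a2, the pump of slow fibers and, as a splice form, of most other cells, had an FPKM of 70.9, 65.3, 54.2, 55.0 and 60.0 in E1 to E5 and 55.3, 58.3, 62.2, 85.0 and 58.0 in NE1 to NE5. Atp2a2 was nearly flat, with 1.57-fold between highest and lowest tumor, where Atp2a1 differed 13004-fold. The latter value rests on 6 reads of Atp2a1 in NE1, and the other tumors ran from 3.54 FPKM in NE5 to 972 in NE4. The log2 fold change of Atp2a2 was −0.10 (SE 0.136, FDR = 0.932), and 0.05 without NE4. Of the reads on the 50 genes, Atp2a2 took 70.8% in NE1 and 54.4% in NE5, but 1.21% in NE4. Accordingly Atp2a1 took 32.7%, 68.5%, 13.2%, 23.6% and 18.0% in E1 to E5 and 0.135%, 26.7%, 42.7%, 92% and 5.75% in NE1 to NE5 of the FPKM of the pair. In GRCm38, 21.9% of the exonic bases of Atp2a1 overlap exons of Rabep2 on the opposite strand, which had from 1.80 to 2.62 FPKM.

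Pvalb encodes parvalbumin, a calcium buffer of fast fibers, and had the highest mean FPKM of the calcium handling genes. Its FPKM was 27.7, 109, 5.41, 11.7 and 12.5 in E1 to E5 and 0, 13.4, 45.5, 1443 and 2.47 in NE1 to NE5. NE4 was 13.2 times E2, which was the widest such gap of the 50 genes, and NE1 had no reads. The log2 fold change of Pvalb was −3.27 (SE 1.83, FDR = 0.897), the lowest of the 50 genes, and it was 1.11 without NE4. Casq1, the calcium-binding calsequestrin of the reticulum of fast fibers, had an FPKM of 7.45, 19.5, 1.27, 2.18 and 2.69 in E1 to E5 and 0.222, 4.47, 9.07, 217 and 0.455 in NE1 to NE5. NE4 was 11.1 times E2, and the log2 fold change was −2.90 (SE 1.60, FDR = 0.897), or 0.89 without NE4. Ryr1, the calcium release channel, ran from 0.117 FPKM in NE1 to 26.5 in NE4, Cacna1s, its voltage sensor, from 0 to 28.4, and Trdn, which links Casq1 to the channel, from 0.0139 to 4.09. Sln, a small inhibitor of the pump, had an FPKM of 3.05, 3.42, 0.515, 0.695 and 0.807 in E1 to E5 and 0, 3.45, 2.67, 12.8 and 0.319 in NE1 to NE5. It was the 1 gene for which NE2 was the second highest tumor.

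The 7 genes of muscle metabolism were highest in NE4 and second in E2. Eno3, the muscle form of the glycolytic enzyme enolase, had the highest mean FPKM of them. Its FPKM was 45.9, 82.7, 23.8, 26.8 and 27.3 in E1 to E5 and 33.4, 36.0, 45.0, 553 and 19.1 in NE1 to NE5. NE1, with 1341 reads, lay above E3, E4 and E5. The log2 fold change of Eno3 was −1.81 (SE 0.939, FDR = 0.897), with the smallest unadjusted p of the 50 genes, and was 0.29 without NE4. Ckm, the muscle creatine kinase, had an FPKM of 20.2, 73.0, 3.63, 7.53 and 7.23 in E1 to E5 and 0.0149, 13.1, 25.6, 540 and 1.2 in NE1 to NE5. It had 1 read in NE1, and lay lower in NE5 than in each E tumor. Pygm (glycogen phosphorylase) ran from 0.283 FPKM in NE1 to 387 in NE4, Mb (myoglobin, the oxygen store) from 0.145 to 131, Ckmt2 (mitochondrial creatine kinase) from 0 to 88.8 and Ampd1 (AMP deaminase) from 0 to 42.9. Pgam2, the muscle phosphoglycerate mutase, was lowest in NE5 with 3.06 FPKM and was 3.71 in NE1. The fitted log2 fold changes of the 7 genes were from −2.77 to −1.81, with a median of −2.47, and of 0.86 without NE4.

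The 4 regulators were low. Trim63, a ubiquitin ligase that acts in the breakdown of muscle protein, had an FPKM of 2.22, 7.32, 0.836, 0.569 and 1.19 in E1 to E5 and 0, 2.35, 3.03, 20.5 and 0.362 in NE1 to NE5. Myod1, a transcription factor of the muscle lineage, had an FPKM of 0.885, 0.403, 0.0521, 0.0579 and 0.0714 in E1 to E5 and 0, 0.373, 0.615, 3.51 and 0.0251 in NE1 to NE5. Myog (myogenin), which acts later in muscle differentiation, had an FPKM of 2.27, 1.0, 0.389, 0.144 and 0.533 in E1 to E5 and 0.0869, 1.82, 1.35, 3.38 and 0.313 in NE1 to NE5. For Myod1 and Myog, E1 with 34 and 70 reads was the second highest tumor, above E2 with 14 and 28 reads, although Acta1 was higher in E2 than in E1. NE4 was 1.49 times E1 for Myog, against a median of 6.61 over the 50 genes for the highest over the second tumor. The log2 fold change of Myog was −0.73 (SE 0.884, FDR = 0.925), and −0.03 without NE4. Mstn (myostatin), a secreted inhibitor of muscle growth, had 5, 43, 7, 14 and 1 reads in E1 to E5 and 0, 10, 21, 481 and 0 reads in NE1 to NE5. It was at 0 in NE1 and NE5 and close to the limit of 3 reads in E1 and E5.

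The pattern of fast and slow forms did not separate the groups. For the shares of Myh4, Myh1, Myh2, Myh7, Tnni2, Tnnt3, Mylpf, Myl1, Mybpc2, Actn3 and Atp2a1 in their sets, the values of E and NE overlapped in each case. As Actn2 is the form of all fibers and Atp2a2 is also used by other cells, the shares of Actn3 and Atp2a1 do not compare fast with slow forms alone. The means differed by −3.68 (Actn3) to 3.46 (Mybpc2) percentage points, except for Tnnt3 with 15.6, which was 0.912 with a minimum of 100 reads that leaves out NE1. With 1 tumor left out the sign of the difference turned for 9 of the 11 shares, Myh2 and Tnnt3 excepted. No test was made of the shares. Set against Acta1 in the same tumor, in FPKM per 1000 FPKM of Acta1, the highest ratio over the 9 tumors other than NE1 was a median of 2.94 times the lowest, for the 45 other genes with reads in each of the 9. It was closest for Mylpf (1.52-fold, 281 to 428). The ratio differed 14.1-fold for Myog and 104-fold for Atp2a2 (21.1 in NE4 to 2205 in NE5). That of Myh7 was from 0.0570 in E4, with 1 read, to 5.84 in E5, and Myl2, Myl3, Tnnc2 and Mstn were at 0 in at least 1 of the 9. In NE1 the ratio was 17230 for Tpm2 and 31170 for Eno3, against at most 749 and 728 in the other tumors.

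Other genes of muscle, from 2 lists that hold none of the 50, were also highest in NE4. Of 32 further genes of the sarcomere and the triad, 32 were highest in NE4 and 26 lowest in NE1, against 15.0% and 18.7% of all genes that passed the filter. All 32 were tested, 0 were called, and 32 were lower in E, against 54.0% of all genes tested. Their median log2 fold change was −1.81, or 0.66 without NE4. Des, which encodes the intermediate filament desmin, was the most abundant with an FPKM of 36.6, 66.3, 9.47, 10.1 and 14.9 in E1 to E5 and 0.773, 24.1, 36.4, 213 and 4.93 in NE1 to NE5. Mylk4, a myosin light chain kinase, had an FPKM of 0.0944, 1.12, 0.0378, 0.112 and 0.0777 in E1 to E5 and 0.0169, 0.0695, 0.0743, 32.2 and 0.0182 in NE1 to NE5. NE4 stood further from the rest there than for any of the 50 genes. Of 12 further genes of mitochondria and energy in muscle, 12 were highest in NE4 and 8 lowest in NE1, against the same 15.0% and 18.7%. Of the 10 tested 0 were called, with a median log2 fold change of −1.68, or 0.64 without NE4. The most abundant was Slc25a4, an ADP/ATP carrier of many cell types, with 254 FPKM in NE4 and 97.6 to 113 in the other tumors.

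Genes of immature muscle were low. Of the 5 genes of embryonic and neonatal muscle, 2 were tested and 0 called, and the most abundant, Myh3, had an FPKM of 1.27, 0.611, 0.0400, 0.107 and 0.132 in E1 to E5 and 0.00715, 0.724, 0.850, 2.62 and 0.0386 in NE1 to NE5. As for Myod1 and Myog, E1 was second to NE4 there, and for Mymk, which acts in the fusion of myoblasts, E1 had the highest level (1.09 FPKM, against 0.952 in NE4). The summed FPKM of the 5 genes was 3.69, 1.84, 0.0730, 0.268 and 0.287 in E1 to E5 and 0.200, 2.01, 2.10, 7.29 and 0.166 in NE1 to NE5. None of the 4 satellite cell genes passed the filter, with summed FPKM of 0.398, 0.238, 0.171, 0.0497 and 0.167 in E1 to E5 and 0.0664, 0.216, 0.323, 2.33 and 0.144 in NE1 to NE5 and Cdh15 as the most abundant. Pax7, the marker of these stem cells, was at most 0.238 FPKM (NE4) and was at 0 in E3, E4, E5, NE1, NE3 and NE5. Of 7 genes of the neuromuscular junction, 5 were tested and 0 called, and 6 were highest in NE4, against 15.0% of all genes that passed the filter. Chrnb1 was the most abundant (5.25 to 8.03 FPKM), and the summed FPKM was 7.83, 8.51, 8.0, 7.04 and 7.68 in E1 to E5 and 5.58, 8.45, 9.47, 16.9 and 7.69 in NE1 to NE5.

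Markers of other tissues that a piece of tumor can hold were set beside these values, and their part in the differences was not tested. Of the 9 heart muscle genes, Nppa was at 0 in each tumor. Myh6 was at most 0.0907 FPKM, Myl7 at most 0.0821 and Mybpc3 at most 0.116. Tnnt2 (0.977 to 1.49 FPKM), Tnni3 (0.718 to 1.56), Myl4 (0.181 to 2.58) and Nppb (0.186 to 2.12) had reads in every tumor. Of the 5 heart muscle genes tested, 0 were called. Actc1 was the most abundant, with 11.1 FPKM in NE4 and at most 2.69 elsewhere, and the sum of the 9 was 7.14, 4.63, 3.51, 3.39 and 3.38 in E1 to E5 and 3.07, 4.4, 6.91, 18.1 and 3.96 in NE1 to NE5. The 7 adipocyte genes were each highest in NE4, against 15.0% of all genes that passed the filter, and 0 of the 5 tested were called. Their summed FPKM was 3.73, 19.3, 8.78, 8.96 and 4.71 in E1 to E5 and 1.98, 5.96, 10.7, 60.4 and 9.57 in NE1 to NE5, and Cfd was the most abundant. E2 was second for them as for most muscle genes, but E1 and E5 had less than E3, E4 and NE5, which was not the order of the muscle genes. Adipoq was at 0 in NE1, and Lep was at 0 in E1, E4, E5, NE1 and NE3. The 3 brown adipocyte genes had summed FPKM of 0.233, 0.123, 0.0681, 0 and 0.0406 in E1 to E5 and 0, 0.0271, 0.0269, 0.117 and 4.65 in NE1 to NE5, with Elovl3 the most abundant and Ucp1 at 0 in 7 tumors, and the 6 keratinocyte genes of 0.871, 0.339, 1.03, 0.418 and 0.741 in E1 to E5 and 0.311, 0.435, 0.563, 0.804 and 54.1 in NE1 to NE5, with Krt14 the most abundant and 0 of 1 tested gene called. Both lists stood out in NE5 alone, where Krt5 had 13.0 FPKM and was otherwise at most 0.0883. In NE5 the brown adipocyte sum came from Elovl3 (3.43 FPKM) and Cidea (1.22 FPKM), while Ucp1 was at 0 there.

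The 9 smooth muscle genes, with Acta2 the most abundant, had summed FPKM of 33.1, 36.1, 31.0, 36.9 and 50 in E1 to E5 and 29.4, 29.3, 25.5, 43.6 and 32.7 in NE1 to NE5, and 0 of the 7 tested were called. The 6 endothelial genes, with Pecam1 the most abundant, summed to 22.0, 22.7, 22.2, 25.6 and 37.9 in E1 to E5 and 25.6, 20.2, 19.6, 33.1 and 24.6 in NE1 to NE5 FPKM, and 0 of 6 were called. The 5 macrophage genes, with C1qa the most abundant, summed to 585, 484, 386, 449 and 698 in E1 to E5 and 216, 473, 528, 587 and 479 in NE1 to NE5 FPKM, and 0 of 5 were called. Over these 3 lists the highest sum was at most 3.24 times the lowest (macrophages), where the summed FPKM of the 50 muscle genes ran from 121 in NE1 to 18184 in NE4. NE1 had the lowest sum of the macrophage genes. The 4 markers of mammary carcinoma cells, with Krt19 the most abundant, summed to 10.4, 6.03, 7.39, 5.23 and 6.38 in E1 to E5 and 8.91, 8.63, 12.1, 12.3 and 14.1 in NE1 to NE5 FPKM, of which 2 were tested and 0 called. Both had an unadjusted p of at most 0.05, against 4.86% of all genes tested, with log2 fold changes of −0.65 (Krt19, SE 0.199, FDR = 0.897) and −1.01 (Epcam, SE 0.387, FDR = 0.897). Both were highest in NE5, and without it the values were −0.54 and −0.68, and Epcam no longer had such a p, as was also the case without E1, E2 or NE4. Krt8 was at 0 in NE1 and at most 0.618 FPKM elsewhere.

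Outside the 50 genes, the genes whose log2(FPKM + 1) was among the most like the mean of the 50 over the 10 tumors included Nrap, Lmod2, Eef1a2, Ndrg2, Cox8b, Fabp3, Ppp1r3c, Pdlim3 and Hrc. For these 9, Pearson's r was from 0.9922 (Hrc and Pdlim3) to 0.9982 (Nrap) over 10 tumors, and from 0.975 to 0.998 over the 8 tumors other than NE1 and NE4, which lay farthest from the median. The r is a description with no test, and Nrap, Lmod2, Cox8b, Fabp3 and Hrc were also in the lists of other muscle genes. Eef1a2, an elongation factor of muscle and neurons, had an FPKM of 10.1, 26.2, 2.30, 3.05 and 3.25 in E1 to E5 and 0.0416, 6.11, 11.4, 156 and 0.808 in NE1 to NE5. It followed the muscle genes down to NE1.

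Promoter sequences of 37 of the 50 genes were matched by symbol in RefSeq (GRCm38.p6), each with 250 bases before and 50 after a start site. An E-box of the letters CANNTG, the motif of Myod1 and Myog, was found on either strand in 32 of the 37 genes (86.5%), against 75.0% of the 27025 genes with a promoter. The E-box CAGCTG, which is 1 form of CANNTG, was found in 19 (51.4%), against 18.3% of all. The MEF2 box was found in 3 (8.11%, against 0.636%), in Ttn, Xirp2 and Klhl41, and the CArG box, the motif of serum response factor, in 5 (13.5%, against 1.81%), in Acta1, Myh4, Myl3, Ldb3 and Myom1. A match is a description of the letters and not a site in use. The 150 bases before the start site are shown for Acta1, the most abundant gene (chr8:123894776-123894925, reverse strand), and for the fastest and the slow heavy chain, Myh4 (chr11:67237662-67237811, forward strand) and Myh7 (chr14:54994627-54994776, reverse strand, the first of 2 start sites), whose ratio differed between tumors, with CArG boxes and E-boxes in capitals.
Acta1: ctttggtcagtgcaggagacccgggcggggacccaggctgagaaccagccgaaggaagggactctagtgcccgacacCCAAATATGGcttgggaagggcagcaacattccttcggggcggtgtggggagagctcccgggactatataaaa
Myh4: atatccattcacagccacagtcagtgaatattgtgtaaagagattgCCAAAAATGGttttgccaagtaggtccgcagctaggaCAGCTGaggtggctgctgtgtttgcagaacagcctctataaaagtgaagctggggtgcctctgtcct
Myh7: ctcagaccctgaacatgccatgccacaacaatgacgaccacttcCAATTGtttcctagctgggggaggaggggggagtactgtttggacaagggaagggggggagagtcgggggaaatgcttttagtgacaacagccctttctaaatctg
In Acta1 the capitals mark a CArG box that begins 73 bases before the start site. In Myh4 they mark a CArG box 104 bases and the E-box CAGCTG 67 bases before it, and in Myh7 the E-box CAATTG 106 bases before it.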

How the data were processed

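The 10 tumors, 5 of the exercise group and 5 of the non-exercise group, were grouped by their labels. By the methods of the authors, Hisat2 2.0 was the aligner and Stringtie 1.3.0 gave the expression values. Their methods name the rat assembly Rnor 6.0, while the gene identifiers are those of mouse. The build used is not given in the sources used here. For each tumor the authors deposited whole-number read counts per gene, and FPKM beside them. How the counts were made, and whether with strand, is not given in the sources used here. The deposited FPKM equal count over gene length and total count, so that TMM is not part of them. The counts were tested with edgeR 4.0.16 in R 4.3.3 (TMM, filterByExpr, two-sided quasi-likelihood test, Benjamini-Hochberg over the 13517 genes that passed), after a check on simulated data. Calls needed a difference of 2-fold or more and an FDR of 0.05 or less, and p-values measure only the spread between these tumors. Isoform shares used FPKM in tumors with at least 30 reads on the set. Alternatives were DESeq2 1.42.0, limma 3.58.1 (voom with sample weights, and trend on log2(FPKM + 1)), no TMM, other filters, a replicate block, Acta1 as a covariate and each tumor left out. Genome positions come from GRCm38 (GENCODE M21), and promoters from RefSeq. The members and the lists were chosen with earlier results of these data known. Values in each tumor are given for genes of the isoform sets, the most abundant gene of each group, the regulators and the 5 genes with the smallest unadjusted p. Of each marker list the most abundant gene and the genes at 0 in all tumors are named, with the summed FPKM. Further genes of these lists are named outside this rule, among them Myh6, Myl7, Tnnt2, Pax7, Adipoq, Lep, Ucp1, Krt5, Krt8 and Epcam. Ckm, Sln, Mylk4, Mymk and Eef1a2 were given in detail after their values were seen.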

Additional observations from a re-analysis of the deposited data

Results flagged for a closer look

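A tumor lay far from the other tumors of its group, by its gap to the nearest of them on log2(FPKM + 1) or on the share, in 17 of the 124 sets of values tested. Chance flags about 1 in 20 groups, or 6.20 of 124, and the genes share their tumors, so that the sets are not independent. In NE4 the high values were 18.3 FPKM for Myl3, 523 for Tpm2, 9.79 for Ttn, 26.5 for Ryr1, 85.0 for Atp2a2, 28.4 for Cacna1s, 4.09 for Trdn, 553 for Eno3 and 7.75 for Mstn. In E2 the high values were 1.52 FPKM for Ttn, 1.76 for Xirp2, 4.35 for Cacna1s, 0.780 for Trdn and 0.0670 for Tnnc2, of which the last rests on 1 read. Of the shares, Myh1 took 73.7% of the heavy chains in NE5, high among the 4 NE tumors with enough reads, and Tnnt3 took 21.3% of its pair in NE1, low among the NE tumors and based on 43 reads. The share of Tnnc2 in its pair was 0.787% in E2, high among the 4 E tumors with enough reads, again from 1 read. No cause was tested.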

How the results depend on the processing

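No gene of the table was called, by fold change and FDR together, under any alternative with the FDR threshold, and 0 of the muscle genes. With DESeq2 the lowest FDR over all genes was 4.51e-04, which passed the FDR threshold but not that of a 2-fold difference. A gene without an FDR in DESeq2 counted as not called. With log2(Acta1 CPM + 1) as a covariate the lowest FDR over all genes was 0.0570. With an unadjusted p of at most 0.05 in place of the FDR, 56 genes of the table and 0 muscle genes passed. The median log2 fold change of the muscle genes was 0.69 with limma-voom and sample weights (5 of 49 lower in E, weights of 0.301 for NE1 and 0.299 for NE4), and with each tumor left out it ran from −2.98 to 0.84, with 1 to 49 genes lower in E and 0 to 2 at an unadjusted p of at most 0.05. The positive end is the fit without NE4. With a filter of 10 reads in every tumor 17 of 17 were lower in E, against 54.7% of all genes tested. With log2(Acta1 CPM + 1) as a covariate 36 of 48 were lower, against 51.3%. Of the 48, 6 (Neb, Tcap, Eno3, Klhl41, Tpm2 and Ttn) had an unadjusted p of at most 0.05, against 8.58% of all genes, and an FDR of at least 0.446. The log2 ratio of the summed read shares ran from −2.71 to 0.75 with each tumor left out, the latter without NE4, and was −0.54 with medians. Single genes turned positive in some settings. With limma-voom the log2 fold change was 0.96 for Acta1, 1.57 for Myh4, 0.28 for Tpm2, 1.29 for Pvalb, 0.18 for Eno3, 0.34 for Tcap and 0.80 for Casq1. With limma-trend it was 0.72 for Acta1, 0.27 for Myh4 and 0.01 for Pvalb, and with the Acta1 covariate 0.25 for Myh4. With each tumor left out the ranges were −2.76 to 0.98 (Acta1), −3.91 to 1.08 (Myh4), −2.57 to 0.87 (Myh7), −0.15 to 0.05 (Atp2a2), −2.18 to 0.48 (Tpm2), −4.48 to 1.11 (Pvalb), −2.22 to 0.29 (Eno3), −3.30 to 0.51 (Tcap) and −3.84 to 0.89 (Casq1), the positive ends without NE4. No difference of the isoform shares moved by more than the larger SD of the 2 groups, but with 1 tumor left out 9 of the 11 changed sign. That of Myh4 ran from −13.2 (without NE5) to 8.76 percentage points, and that of Tnnt3 from 0.912 (without NE1) to 20.1. The cause was not tested. Low counts limit the values of Tnnc2, Mstn, Myod1, Myh7, Myl2 and Myl3, which had under 10 reads in at least 4 tumors at depths from 15045613 to 23092251 reads.

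With the replicate number as a block, 13 of 49 muscle genes were lower in E, the median log2 fold change was 0.32, and the log2 fold change was 0.77 for Acta1, 1.45 for Myh4, 0.68 for Myh7, 0.86 for Pvalb and 0.34 for Casq1, with 0 genes called. The deviations of same-numbered tumors correlated by −0.0104, −0.0109, −0.215, −0.266 and 0.323, and only E5 correlated best with the NE tumor of its own number. The authors write of matched pairs in their results without saying what was matched, and the labels give no more than a number.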
